A study of Homo sapiens with 9 samples.

Results

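The ZNF zinc finger genes analyzed here were the well-expressed members of the family in MDA-MB-231 cells, a human triple-negative breast cancer (TNBC) cell line. Members were the genes whose symbol is ZNF, a number and at most 1 further letter, and whose mean expression over the 9 libraries was 5 FPKM or more. FPKM is a read number scaled by the length of the gene and by the reads of the whole library. The members were thus chosen by their mean level over all groups, the treated ones included. Near the limit, a difference between groups could therefore decide whether a gene entered. The rule took 59 genes of the 557 ZNF genes listed, of which 510 were above 0 in at least 1 library. All 59 passed the filter on low values. The cells were wild type and grown in medium with serum. Control cells received no 2-deoxy-D-glucose (2-DG), a glucose analogue that enters glycolysis and blocks it, and the other cells received 10 mM or 20 mM 2-DG for 24 h. Each of the 3 groups held 3 libraries of total RNA. All libraries came from 1 cell line, and the sources used here do not say whether the 3 libraries of a group came from separate cultures. The p-values therefore measure the spread between these libraries, which may be technical. The spread of each gene was estimated over all 3 groups together, so each comparison also drew on the libraries of the group outside it.

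C2H2 zinc finger proteins carry short repeated fingers that each fold around a zinc ion and read a few bases of DNA, and they form the largest class of human transcription factors. Many carry a KRAB domain, which recruits the corepressor TRIM28 and the histone methyltransferase SETDB1 to silence retrotransposons and other repeats, and a good part of these genes lie in clusters on chromosome 19. Other members of the name family activate promoters, carry SCAN domains for pairing, or act on RNA, ribosomes or the mitotic spindle and not on DNA. Of the 59 genes, 58 were protein-coding and ZNF731P was a transcribed pseudogene. On the GRCh38 build, 22 of them lay on chromosome 19. A C2H2 finger pattern was found in 55 of the 58 coding sequences, up to 31 times in ZNF646, with a median of 7.5. ZNF185, ZNF330 and ZNF703 had none by this pattern.

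Both ZNF143, an activator of many promoters, and its close relative ZNF76 were among the 59 genes, and the letters ACTACAA form part of the known ZNF143 recognition site. RefSeq promoter windows (250 bases before to 50 after the start, GRCh38.p14) were matched by symbol for 48 of the 59 genes. ACTACAA, searched on both strands, was found in the windows of 8 of these genes (16.7%) and in 3.8% of 15842 protein-coding genes. Among 4853 genes of 5 FPKM or more with a window, 5.1% held it, and among the ZNF genes under 5 FPKM 5.2% did. The 8 stretches are shown so that the bases around each match can be read beside the changes of these genes. Each runs 5′ to 3′ on the strand that carries the match, which is in capitals with 20 bases on either side.
ZNF697 (chr1:119648319-119648365, minus strand): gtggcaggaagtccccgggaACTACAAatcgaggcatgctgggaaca
ZNF32 (chr10:43648857-43648903, plus strand): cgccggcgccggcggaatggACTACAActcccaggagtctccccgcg
ZNF358 (chr19:7516042-7516088, plus strand): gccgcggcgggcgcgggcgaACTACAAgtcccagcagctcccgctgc
ZNF317 (chr19:9140297-9140343, plus strand): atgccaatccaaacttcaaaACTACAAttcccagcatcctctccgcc
ZNF121 (chr19:9584613-9584659, minus strand): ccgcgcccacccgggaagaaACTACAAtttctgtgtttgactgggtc
ZNF628 (chr19:55476469-55476515, plus strand): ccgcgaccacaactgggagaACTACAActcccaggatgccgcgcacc
ZNF444 (chr19:56141148-56141194, minus strand): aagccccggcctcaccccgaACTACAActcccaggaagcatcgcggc
ZNF185 (chrX:152914379-152914425, plus strand): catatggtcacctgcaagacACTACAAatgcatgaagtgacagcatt
The motif lay on the strand of the gene in 6 of the 8 stretches, and on the opposite strand in ZNF32 and ZNF444. At 20 mM 2-DG, ZNF697, ZNF317, ZNF121 and ZNF628 were higher than control, ZNF358 was lower, and ZNF32, ZNF444 and ZNF185 were not called. Of the 48 genes with a window, 16 were higher and 3 lower, and of all genes 15.4% and 21.6%. ZNF628, with a control mean of 4.89 FPKM, was a member only through its values under 2-DG. The calls of ZNF697 and ZNF358 were lost in some fits with 1 library left out. A link between the motif and the changes was not tested. The match says that these letters are present, not that a factor was bound.

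The whole windows of 3 members are shown for the members named most in the results: ZNF432, with the highest log2 fold change at 20 mM, ZNF217, with the lowest, and ZNF121, which holds ACTACAA. Capitals mark GGGCGG or its reverse complement (an SP1-type GC box) and ACTACAA. The RefSeq starts of ZNF432 and ZNF217 both lie well inside the longer gene models of GENCODE, so these windows are not at the 5′ ends of those models.
ZNF121 (chr19:9584455-9584754, minus strand): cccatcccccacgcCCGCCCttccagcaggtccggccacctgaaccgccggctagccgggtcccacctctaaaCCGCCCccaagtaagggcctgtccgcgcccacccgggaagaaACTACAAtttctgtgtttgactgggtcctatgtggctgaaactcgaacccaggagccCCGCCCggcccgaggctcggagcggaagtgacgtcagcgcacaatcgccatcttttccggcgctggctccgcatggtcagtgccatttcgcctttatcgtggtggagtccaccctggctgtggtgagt
ZNF432 (chr19:52048789-52049088, minus strand): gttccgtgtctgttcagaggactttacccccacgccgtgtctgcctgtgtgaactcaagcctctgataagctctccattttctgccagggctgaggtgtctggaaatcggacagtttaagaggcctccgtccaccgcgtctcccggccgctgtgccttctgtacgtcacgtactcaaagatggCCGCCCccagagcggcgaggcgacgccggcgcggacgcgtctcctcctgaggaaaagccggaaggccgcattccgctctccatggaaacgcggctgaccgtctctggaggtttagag
ZNF217 (chr20:53593790-53594089, minus strand): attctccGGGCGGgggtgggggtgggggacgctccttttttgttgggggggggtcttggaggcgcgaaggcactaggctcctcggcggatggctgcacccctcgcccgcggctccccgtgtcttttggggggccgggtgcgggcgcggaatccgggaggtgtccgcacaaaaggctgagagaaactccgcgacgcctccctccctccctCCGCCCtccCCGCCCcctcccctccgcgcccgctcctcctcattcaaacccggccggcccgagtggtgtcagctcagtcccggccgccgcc
The window of ZNF432 held 1 GC box, that of ZNF217 held 3, and that of ZNF121 held 3 beside the ACTACAA match. A GC box (GGGCGG, either strand) was found in the windows of 81.2% of the 48 members and 80.4% of the genes of 5 FPKM or more. CCAAT was found in 31.2% and 44.5%, and TGATGNAA in 2.1% and 2.4%.

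The libraries held 30974968 to 40843638 reads, as recovered from the FPKM steps, and the members had 242 to 4790 reads in a library. Cell identity was checked with fixed markers. VIM lay between 243 and 313 FPKM and AXL between 89.9 and 126 FPKM, whereas ESR1 and PGR did not exceed 0.0204 FPKM and CDH1 did not exceed 0.417 FPKM. ERBB2 was at 5.53 to 9.11 FPKM and EPCAM at 2.61 to 4.51 FPKM. Of the markers of other cells, PTPRC, CD3E and KRT5 did not exceed 0.0327 FPKM, and PECAM1 and COL1A1 lay between 0.826 and 1.95 FPKM. Some markers moved with 2-DG. The 5 markers of other cells summed to 2.79 to 3.13 FPKM in control, 2.06 to 2.44 at 10 mM and 1.85 to 2.13 at 20 mM, and of the 2 of them tested PECAM1 fell from 1.72 to 0.914 FPKM at 20 mM (limma, adjusted p = 0.00318). Of the other markers, EGFR rose from 14.0 to 26.0 FPKM (adjusted p = 0.0104), while CD44 fell from 69.8 to 56.6 (0.00828), ERBB2 from 8.81 to 5.76 (0.000385) and CDH1 from 0.365 to 0.0686 (0.000207). Their part in the changes of the members was not tested. The libraries differed in composition. Over 10823 genes, the deviation of a library from the mean of all libraries correlated with the GC content of the transcript at r = 0.298 in 10 mM replicate 2, -0.21 in 10 mM replicate 1, -0.347 in 10 mM replicate 3 and 0.243 in control replicate 1. The 20 mM libraries lay between -0.03 and 0.088. Over the 59 members, the Pearson correlation of log2(FPKM + 1) was 0.877 between 10 mM replicates 1 and 2, and 0.985 or more between the 20 mM libraries. The median coefficient of variation of the members was 9.34% in control, 10.9% at 10 mM and 4.14% at 20 mM 2-DG.

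**Figure D1:**
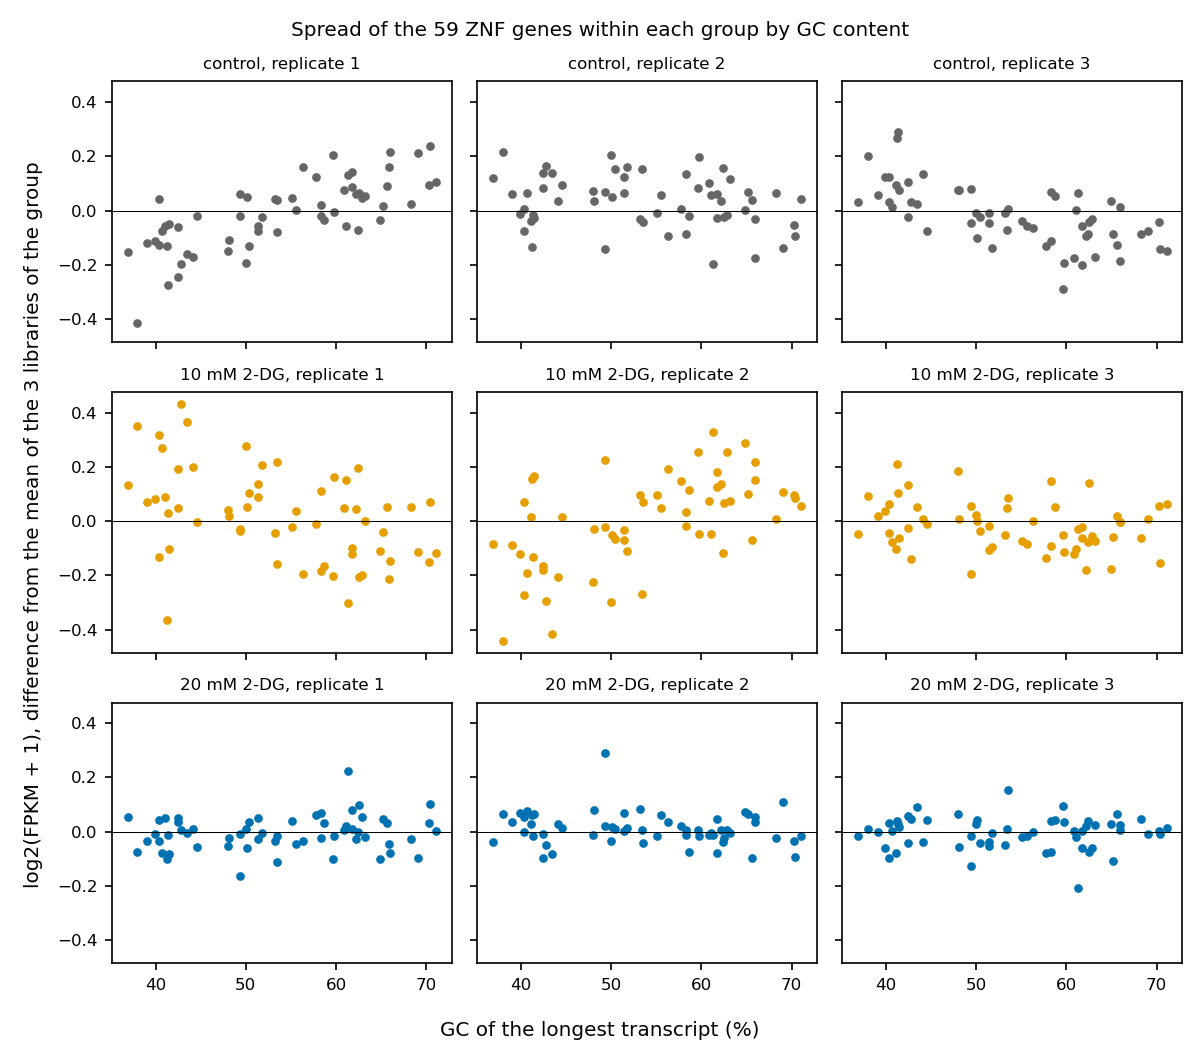
Deviation of each of the 59 ZNF genes (points) from the mean of its group in log2(FPKM + 1), against the GC content of the longest transcript (%), with 1 panel for each of the 9 libraries. The points slope up in control replicate 1 and 10 mM replicate 2, slope down in 10 mM replicate 1 and control replicate 3, and stay flat in the 20 mM libraries.

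The mean levels over the 9 libraries, which the rule used and which are given as a description, ran from 5.04 to 40.6 FPKM with a median of 7.95. Only 3 genes reached 20 FPKM and 23 reached 10 FPKM. The highest were ZNF622 at 40.6 FPKM, ZNF114 at 30.2, ZNF768 at 25.6, ZNF146 at 19.5 and ZNF787 at 19.3. Just above the limit lay ZNF131 at 5.36, ZNF432 at 5.34 and ZNF700 at 5.04 FPKM, and just below it ZNF875 at 4.99, ZNF639 at 4.94 and ZNF496 at 4.85 FPKM. Summed over the 59 genes, FPKM was 555 ± 9.28 (SD, n = 3) in control, 642 ± 9.78 at 10 mM and 637 ± 6.32 at 20 mM 2-DG. The libraries of both doses lay above all control libraries in this sum, which is a share of the reads. The sum includes 7 members with control means under 5 FPKM, which the rule took only through higher values under 2-DG and which summed to 30.9 FPKM in control and 48.8 at 20 mM. Over the other 52 the sum was 524 ± 8.28 in control, 597 ± 11.4 at 10 mM and 588 ± 6.5 at 20 mM. In RNA of bulk cells, a change in RNA per cell and a change in the mix of cells cannot be told apart.

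The first question was which ZNF genes changed with 2-DG. More of them rose than fell at both doses, most by less than 2-fold. At 10 mM 2-DG, 17 of 59 were higher and 3 lower than control (limma on log2(FPKM + 1), adjusted p under 0.05), where 12.1% of all 16572 genes tested were higher and 17.5% lower. At 20 mM, 20 were higher and 6 lower, against 15.4% and 21.6% of all genes. The 59 genes gave 33.9% higher and 10.2% lower at 20 mM, and the 6084 genes tested that also had a mean of 5 FPKM or more gave 20.5% and 29%. The median log2 fold change of the members was 0.11 at 10 mM and 0.12 at 20 mM, and that of all genes was -0.01 and -0.02. The libraries of the groups did not overlap for 28 members that were higher and 7 that were lower at 20 mM, against 23.3% and 29.9% of all genes. Of the 6084 genes of 5 FPKM or more, 1745 were higher and 2295 lower without overlap. Among the 51 members with a mean of 5 FPKM or more in every group, the counts were 21 and 6. The 17 genes higher at 10 mM were all among the 20 at 20 mM, and the 3 lower ones among the 6, but both comparisons use the same control libraries. By the study's DEG thresholds (p under 0.05 before adjustment, and a log2 fold change beyond 1 in either direction), 0 members passed at 10 mM and 1 passed at 20 mM, against 1.74% and 2.92% of all genes. The study applied these thresholds with DESeq2, whereas fold changes on log2(FPKM + 1) understate the change of low genes.

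These counts depend on how the members were chosen. A gene with a control mean under 5 FPKM could enter only through higher values under 2-DG. There were 7 such members: ZNF131, ZNF251, ZNF432, ZNF621, ZNF628, ZNF646 and ZNF655. All 7 were higher at 20 mM. In the same way ZNF700, which was lower, entered only through values above 5 FPKM in the other groups. The 51 members with a mean of 5 FPKM or more in every group gave 13 higher and 5 lower at 20 mM (25.5% and 9.8%), and 11 higher and 3 lower at 10 mM. These 51 were set apart after the values had been seen. With the trend of each library on GC content and length removed, also added after seeing the data, 32 members (54.2%) were higher at 20 mM, where 22.8% of all genes were, and 6 were lower. This correction moved the share of calls that were higher from 41.5% to 54.4% over all genes at 20 mM and from 40.9% to 51.9% at 10 mM.

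**Figure D2:**
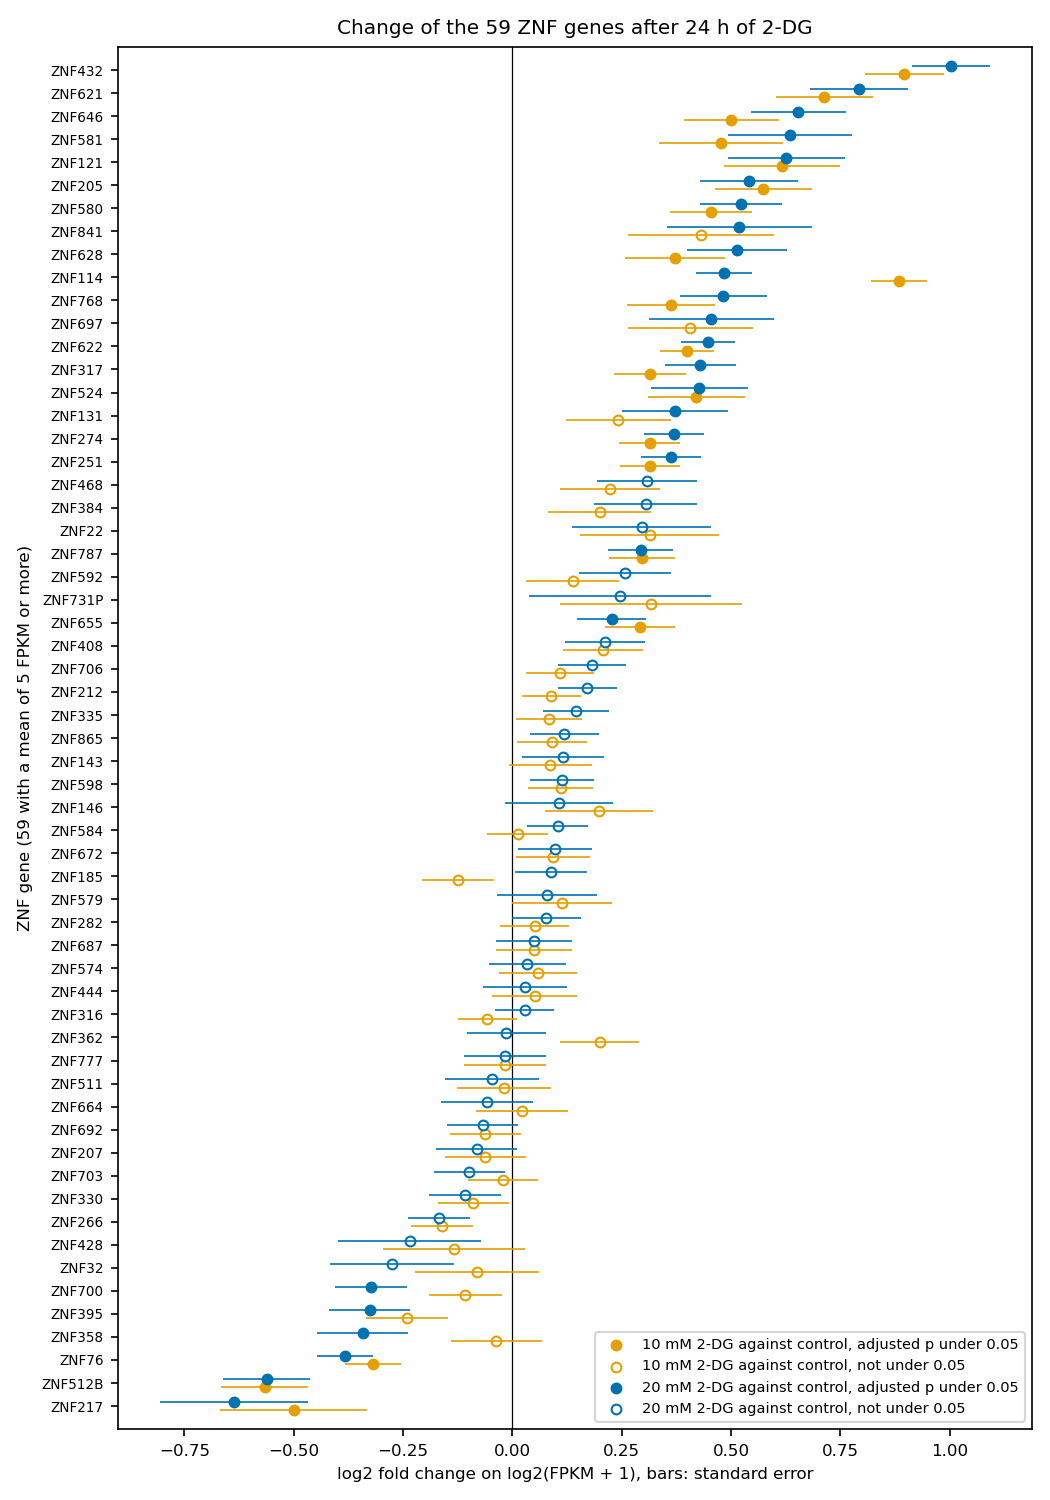
Log2 fold change of the 59 ZNF genes against control on the log2(FPKM + 1) scale at 10 mM (orange) and 20 mM (blue) 2-DG, with standard errors as bars and filled points for adjusted p under 0.05. At 20 mM the genes run from -0.64 for ZNF217 to 1.00 for ZNF432, with 20 filled points to the right of 0 and 6 to the left.

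ZNF432, a KRAB zinc finger protein, had the highest log2 fold change at 20 mM. Its control mean of 2.91 FPKM was under the limit, so ZNF432 passed the rule only through its higher values under 2-DG. It was at 2.61, 2.86 and 3.25 FPKM in the control libraries, 6.68, 5.68 and 6.45 at 10 mM, and 6.77, 7.21 and 6.49 at 20 mM. All 6 treated libraries lay above every control library, and the ratio of the means was 2.16 at 10 mM and 2.35 at 20 mM. The log2 fold change was 0.90 ± 0.09 (SE, adjusted p = 8.46e-05) at 10 mM and 1.00 ± 0.09 (adjusted p = 2.57e-05) at 20 mM, and it was the only DEG among the members. On the log2(FPKM + 1) scale, which understates the change of low genes, its log2 fold change at 20 mM lay just past the DEG threshold. Without 20 mM replicate 2, control replicate 1 or control replicate 2 it was 0.97, 0.95 and 0.997, so that no member was a DEG. The log2 ratio of its mean FPKM was 1.11 at 10 mM and 1.23 at 20 mM. With limma-voom on recovered reads its log2 fold changes were 1.11 and 1.24. ZNF432 lies on the minus strand at chr19:52031379-52095738 and shares 199 exon bases with ZNF841 on the same strand, 3.3% of its own and 4.6% of those of ZNF841, so reads there could count for either. ZNF841, also a KRAB gene, was at 6.01, 8.01 and 7.21 FPKM in control and 10.6, 10.1 and 10.9 at 20 mM, which do not overlap. Its log2 fold change at 20 mM was 0.52 ± 0.17 (adjusted p = 0.0338), and the call was lost without any single one of the 20 mM libraries or without control replicate 1 or 3 (highest adjusted p = 0.11), and with no filter on low values (0.107). At 10 mM its libraries spread from 7.84 to 13.6 FPKM and overlapped control, and it was not called.

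ZNF621 and ZNF121 rose by similar amounts. ZNF621 was at 4.24, 5.05 and 5.48 FPKM in control, 10.1, 7.38 and 8.72 at 10 mM, and 9.29, 9.42 and 8.96 at 20 mM. Its log2 fold change was 0.71 ± 0.11 at 10 mM (adjusted p = 0.00116) and 0.79 ± 0.11 at 20 mM (adjusted p = 0.000444). The groups did not overlap, although its control mean of 4.92 FPKM was under the limit of the rule. ZNF121, which has been reported to bind MYC, was at 4.51, 5.04 and 5.56 FPKM in control, 10.5, 6.64 and 7.95 at 10 mM, and 8.08, 8.30 and 8.52 at 20 mM. The treated libraries all exceeded the control libraries, with the widest spread at 10 mM, and the log2 fold change was 0.62 ± 0.13 at 10 mM (adjusted p = 0.00694) and 0.63 ± 0.13 at 20 mM (adjusted p = 0.00483).

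ZNF646, the member with the most finger patterns, and ZNF628, a gene of chromosome 19, had control means under 5 FPKM. ZNF646 was at 4.40, 5.21 and 3.73 FPKM in control, 7.57, 6.42 and 6.07 at 10 mM, and 7.42, 7.42 and 7.72 at 20 mM, with a log2 fold change of 0.65 ± 0.11 at 20 mM (adjusted p = 0.00121). ZNF628 was at 5.90, 4.48 and 4.30 FPKM in control and 7.98, 6.83 and 7.31 at 20 mM, a log2 fold change of 0.51 ± 0.11 (adjusted p = 0.00616). Neither gene overlapped between control and 20 mM. At 10 mM, ZNF628 (6.95, 7.03 and 5.82 FPKM) overlapped control, and its adjusted p of 0.0343 rose as high as 0.113 without 10 mM replicate 1 or 2, 20 mM replicate 3 or control replicate 2 or 3, each of which ended the call.

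The neighbours ZNF580 and ZNF581 also rose, and share 407 exon bases on the plus strand of chromosome 19 (chr19:55635016-55643469 and chr19:55635459-55645622), so that their reads cannot be fully told apart. ZNF580 was at 14.1, 13.3 and 10.9 FPKM in control, 16.5, 19.5 and 17.5 at 10 mM, and 18.8, 19.3 and 17.9 at 20 mM. ZNF581 was at 11.9, 10.8 and 8.15 FPKM in control, 12.5, 17.6 and 14.0 at 10 mM, and 15.2, 16.4 and 17.5 at 20 mM. Both stood above control in every treated library, by log2 fold changes at 20 mM of 0.52 ± 0.09 (adjusted p = 0.00193) for ZNF580 and 0.63 ± 0.14 (adjusted p = 0.00639) for ZNF581. At 10 mM, ZNF581 lost its call without 10 mM replicate 2 or 3 or control replicate 3, with adjusted p up to 0.0948. ZNF205, a KRAB gene of chromosome 16, went from 6.85, 5.61 and 4.94 FPKM in control to 8.07, 10.2 and 9.04 at 10 mM and 8.31, 9.21 and 9.0 at 20 mM. Its groups did not overlap, with log2 fold changes of 0.57 ± 0.11 (adjusted p = 0.00408) and 0.54 ± 0.11 (adjusted p = 0.00415). ZNF205 overlaps the antisense gene ZNF213-AS1 over 17.1% of its exon bases, and whether strand was used in counting is not given in the sources used here.

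ZNF114, a KRAB gene with few fingers, had the largest difference between doses among the 59 members. It was at 19.4, 21.6 and 22.2 FPKM in control, 40.2, 38.9 and 39.97 at 10 mM, and 29.4, 31.6 and 28.6 at 20 mM. The 3 groups did not overlap, with 10 mM highest and 20 mM between. Against control, the log2 fold change was 0.88 ± 0.06 at 10 mM (adjusted p = 1.16e-05) and 0.48 ± 0.06 at 20 mM (adjusted p = 0.000289). Between the doses it was -0.40 ± 0.06, with an unadjusted p of 9.88e-05 and an adjusted limma p of 0.117 over all genes, so the difference did not pass the threshold.

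**Figure D3:**
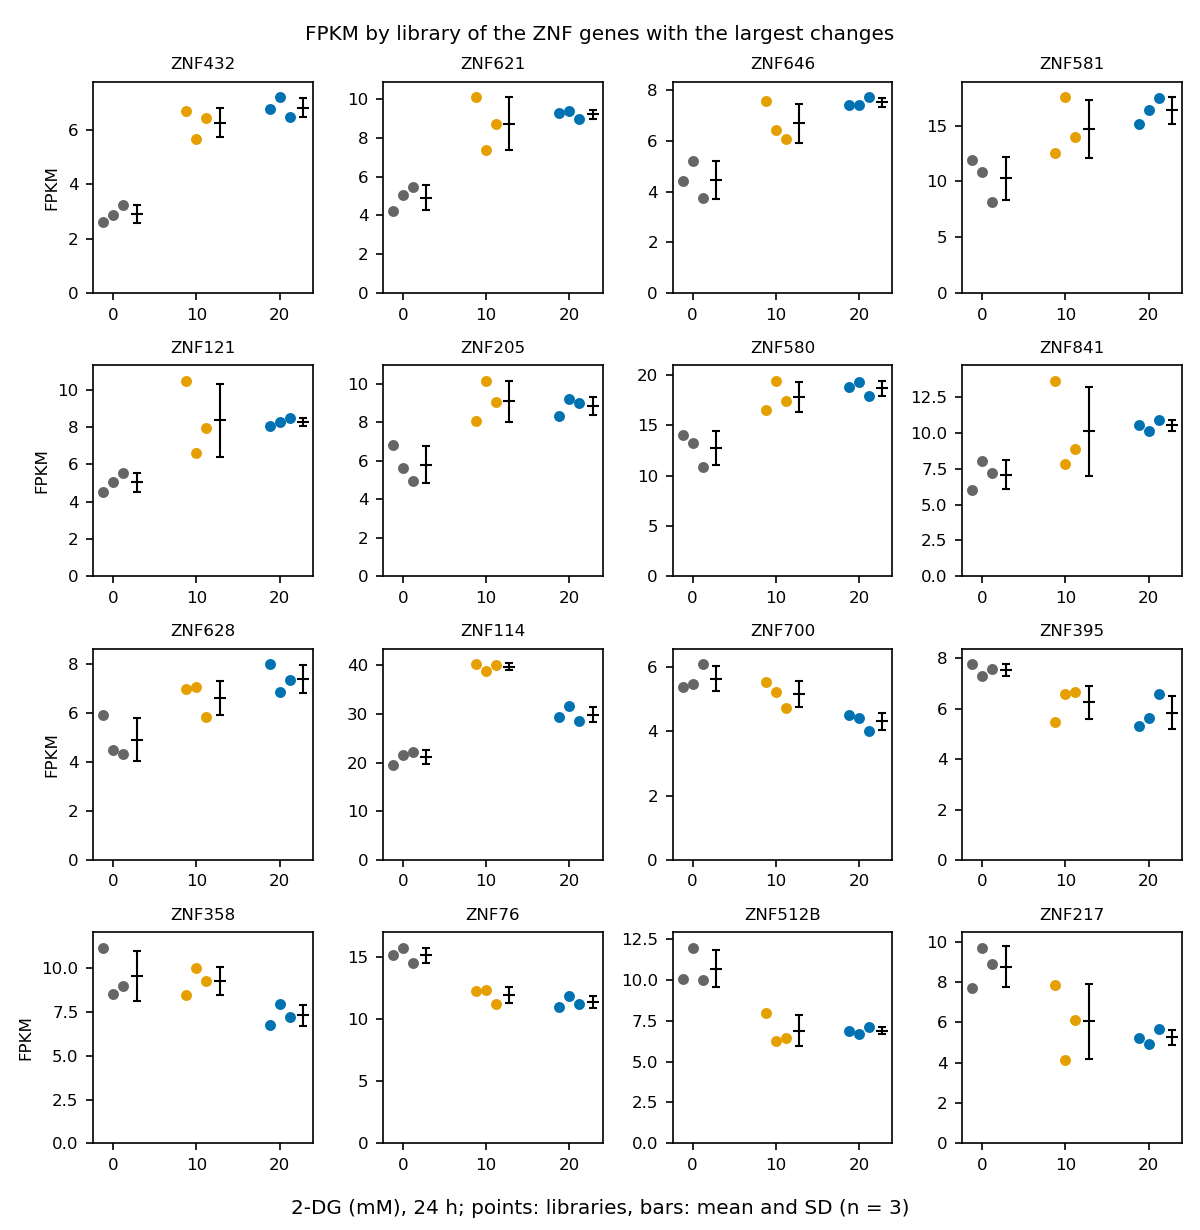
FPKM in each of the 9 libraries (points) against the 2-DG dose for the 10 ZNF genes with the largest rises and the 6 that fell at 20 mM, with the mean and SD of 3 libraries as bars and each axis starting at 0. ZNF432 goes from 2.91 FPKM in control to 6.82 at 20 mM, ZNF114 is highest at 10 mM, and ZNF217 goes from 8.78 to 5.27 FPKM.

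Among the genes that fell, ZNF512B and ZNF76 kept their calls in every fit with 1 library left out. ZNF512B, which binds the NuRD remodeling complex, was at 10.1, 12 and 9.96 FPKM in control, 7.98, 6.24 and 6.43 at 10 mM, and 6.87, 6.66 and 7.09 at 20 mM. All treated libraries lay below control, and the log2 fold change was -0.57 ± 0.10 (adjusted p = 0.0022) at 10 mM and -0.56 ± 0.10 (adjusted p = 0.00168) at 20 mM. ZNF76 was at 15.2, 15.8 and 14.5 FPKM in control, 12.3, 12.4 and 11.2 at 10 mM, and 11, 11.9 and 11.2 at 20 mM. It did not overlap control at either dose, with log2 fold changes of -0.32 ± 0.06 (adjusted p = 0.00468) and -0.38 ± 0.06 (adjusted p = 0.00123).

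ZNF217, an oncogene amplified in breast cancer that works with CoREST corepressors, had the lowest log2 fold change at 20 mM. It was at 7.72, 9.71 and 8.89 FPKM in control, 7.87, 4.16 and 6.13 at 10 mM, and 5.23, 4.91 and 5.67 at 20 mM. The 20 mM libraries lay below control, while the 10 mM libraries had the widest relative spread of any member (coefficient of variation 30.6%) and overlapped it. The log2 fold change was -0.64 ± 0.17 at 20 mM (adjusted p = 0.0146) and -0.50 ± 0.17 at 10 mM (adjusted p = 0.0495). Without 20 mM replicate 2 or control replicate 2 the 20 mM call was lost, with adjusted p up to 0.0514. It was also lost with no filter on low values (adjusted p = 0.054). At 10 mM it was lost when any library other than 10 mM replicate 1 was left out, with log2 fold changes from -0.58 to -0.29 and adjusted p up to 0.14 in these fits, and also with median-ratio scaling (0.0508) or no filter (0.143).

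ZNF358, ZNF395 and ZNF700 were called lower at 20 mM and not at 10 mM. ZNF358 was at 11.2, 8.55 and 8.97 FPKM in control, 8.46, 10.0 and 9.30 at 10 mM, and 6.74, 7.94 and 7.23 at 20 mM. ZNF395, a factor known to respond to hypoxia, was at 7.77, 7.30 and 7.56 FPKM in control and 5.31, 5.62 and 6.57 at 20 mM. ZNF700, a KRAB gene, was at 5.37, 5.47 and 6.09 FPKM in control and 4.49, 4.41 and 4.02 at 20 mM. None of the 3 overlapped control at 20 mM. The log2 fold changes there were -0.34 ± 0.10 for ZNF358 (adjusted p = 0.0277), -0.33 ± 0.09 for ZNF395 (adjusted p = 0.021) and -0.32 ± 0.08 for ZNF700 (adjusted p = 0.0125). The call of ZNF358 was lost without 20 mM replicate 1 or 3 or control replicate 1 (adjusted p up to 0.1), that of ZNF395 without 20 mM replicate 1 or 2 or control replicate 1 or 3 (up to 0.0844), and that of ZNF700 without 20 mM replicate 3 (0.0542). With median-ratio scaling the calls of ZNF358 (adjusted p = 0.0794) and ZNF395 (0.0516) were lost, and with no filter on low values that of ZNF358 (0.071). ZNF700, with a 20 mM mean of 4.31 FPKM, passed the rule only through its higher control and 10 mM values. ZNF395 shares 34.9% of its exon bases with FBXO16 on the same strand.

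Of the 5 most abundant members, 4 were called higher at 20 mM, beside 15.4% of all genes and 20.5% of those of 5 FPKM or more. The 5 were ranked by the mean over all 9 libraries, so higher values under 2-DG could raise a rank. In control, ZNF787, called higher, was at 16.7 FPKM, and ZNF598, not called and outside the 5, at 17.9. ZNF622, a factor in the maturation of the large ribosomal subunit, was at 33.9, 32.1 and 32.6 FPKM in control, 42.4, 46.7 and 42.0 at 10 mM, and 44.0, 47.9 and 43.7 at 20 mM. It did not overlap control, with log2 fold changes of 0.40 ± 0.06 (adjusted p = 0.00106) and 0.45 ± 0.06 (adjusted p = 0.000378). ZNF768 was at 21.3, 20.4 and 20.2 FPKM in control, 23.2, 32.2 and 25.8 at 10 mM, and 30.4, 29.3 and 28.0 at 20 mM, a log2 fold change of 0.48 ± 0.10 at the higher dose (adjusted p = 0.00424). ZNF787 was at 17.8, 16 and 16.2 FPKM in control, 18.5, 22.2 and 21.5 at 10 mM and 21.1, 20.1 and 20.6 at 20 mM, a log2 fold change of 0.29 ± 0.08 (adjusted p = 0.0124). ZNF768 and ZNF787 did not overlap control at either dose, but at 10 mM both calls were lost when 1 library was left out: ZNF768 without control replicate 2 or 3 (adjusted p up to 0.0641), ZNF787 without 10 mM replicate 3 or control replicate 2 (up to 0.0536). ZNF146, a small protein made almost only of fingers, spread from 14.7 to 22.2 FPKM in control, which spans its 20 mM libraries (19.2, 19.2 and 19.8), and was not called.

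The promoter factors on a fixed list had 4 members among the 59, of which ZNF76 alone was called, lower at both doses. Of all genes tested, 17.5% were lower at 10 mM and 21.6% at 20 mM. The list was not tested as a set. ZNF143 was at 6.02, 6.75 and 6.20 FPKM in control and 7.20, 6.88 and 6.70 at 20 mM, which overlap (log2 fold change 0.12 ± 0.09, adjusted p = 0.371). ZNF384, which binds A-rich DNA, was at 7.95 ± 0.835 FPKM (SD, n = 3) in control and 10.0 ± 0.098 at 20 mM, with no overlap but an adjusted p of 0.0665. ZNF335, a part of histone H3 methyltransferase complexes, was at 9.43 ± 0.412 and 10.5 ± 0.167 FPKM (adjusted p = 0.16).

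Of 5 members on the list of chromatin and breast cancer factors, ZNF217 fell and ZNF131, a factor with a BTB domain, rose at 20 mM. Over all genes, 21.6% were lower and 15.4% higher at this dose. ZNF131 was at 3.61, 5.01 and 4.88 FPKM in control and 6.26, 5.62 and 6.36 at 20 mM, which do not overlap. The control mean of ZNF131, 4.50 FPKM, was under the limit, so it passed the rule only through higher values under 2-DG. Its log2 fold change was 0.37 ± 0.12 (adjusted p = 0.0355), lost without any single 20 mM library or without control replicate 1 (up to 0.108), and with no filter on low values (0.0884). ZNF687 and ZNF592, which form a complex with ZMYND8, had log2 fold changes of 0.05 ± 0.09 (adjusted p = 0.696) and 0.26 ± 0.11 (adjusted p = 0.0837). ZNF703, amplified in luminal breast cancers, was at 7.23 ± 0.448 FPKM (SD, n = 3) in control and 6.69 ± 0.496 at 20 mM, with adjusted p = 0.372.

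Of 5 members on the list of RNA, ribosome and spindle proteins, ZNF622 alone was called, higher at both doses. Of all genes, 12.1% were higher at 10 mM and 15.4% at 20 mM. ZNF598, the ubiquitin ligase that senses collided ribosomes, was at 17.9 ± 1.46 FPKM (SD, n = 3) in control, 19.4 ± 0.876 at 10 mM and 19.4 ± 1.18 at 20 mM, and its libraries overlapped (adjusted p = 0.263 at 20 mM). ZNF207, a spindle assembly protein that binds BUB3, was at 6.0 ± 0.664 and 5.60 ± 0.222 FPKM in control and at 20 mM (adjusted p = 0.526). ZNF330, a nucleolar protein, went from 14.3 ± 0.723 to 13.2 ± 0.725 FPKM without passing the test (adjusted p = 0.333). ZNF706 was at 9.87 ± 0.486 and 11.3 ± 0.713 FPKM, with adjusted p = 0.0933. Both SCAN factors on the list were members. ZNF274, which carries a SCAN and a KRAB domain and brings SETDB1 to the ends of other zinc finger genes, was at 6.68, 7.35 and 6.92 FPKM in control, 9.56, 8.45 and 8.79 at 10 mM, and 9.68, 9.33 and 8.93 at 20 mM. All treated libraries lay above control, with log2 fold changes of 0.31 ± 0.07 (adjusted p = 0.00773) and 0.37 ± 0.07 (adjusted p = 0.00247). ZNF444 was at 5.52 ± 0.572 FPKM in control and 5.64 ± 0.329 at 20 mM (adjusted p = 0.843).

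The other genes called higher at 20 mM were ZNF251, ZNF317, ZNF524, ZNF655 and ZNF697, with log2 fold changes from 0.23 for ZNF655 to 0.46 for ZNF697. The remaining members were not called at either dose. In this group the log2 fold change at 20 mM ran from -0.27 for ZNF32 to 0.31 for ZNF468. By the GENCODE exons, ZNF468 shares 6021 of 11355 exon bases (53.0%) with ZNF320 on the same strand. The length of ZNF468 recovered from the FPKM values was 5279 bases, fewer than the shared bases. The gene model behind these values was thus shorter, and its overlap with ZNF320 is not known. The fits with 1 library left out kept the same members. These include ZNF131, ZNF251, ZNF432, ZNF621, ZNF628, ZNF646 and ZNF655, which passed the rule only through higher values under 2-DG. Of these, ZNF131 and ZNF655 lost the 20 mM call in some fits and the others kept it. With 1 library left out at a time, 15 of the 20 higher and 2 of the 6 lower members kept the 20 mM call in every fit, as did 10 of 17 and 2 of 3 at 10 mM. At 20 mM the higher members that lost it were ZNF131, ZNF524, ZNF655, ZNF697 and ZNF841. ZNF524 lost it without 20 mM replicate 2 (adjusted p = 0.0521), and ZNF697 without any single 20 mM library or control replicate 1 or 3 (up to 0.103). At 10 mM, ZNF317 and ZNF524 lost the call without control replicate 1 (adjusted p = 0.0563 and 0.0537), and ZNF655 without 10 mM replicate 1 or 3 or control replicate 1 (up to 0.0686). At 20 mM, ZNF655 lost it without 10 mM replicate 3 or any single 20 mM or control library (up to 0.149). With no filter on low values, ZNF655 and ZNF697 also lost the call at 20 mM, and ZNF524, ZNF581, ZNF628 and ZNF768 lost it at 10 mM.

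The second question was whether the doses differed. Between 20 mM and 10 mM 2-DG, 0 of the 59 members and 0 of all 16572 genes passed (limma, adjusted p under 0.05), so the background was 0.00%, and limma-voom on the recovered reads gave 0 as well. At an unadjusted p under 0.05, 1 member was higher at 20 mM and 4 were lower, against 2.75% and 4.13% of all genes. The higher one was ZNF185, a LIM domain protein of the actin cytoskeleton, with 11.8, 10.4 and 9.85 FPKM at 10 mM and 12.3, 13.2 and 12.2 at 20 mM. The lower ones were ZNF114, ZNF358, ZNF362 and ZNF700. The median log2 fold change between the doses was 0.00 over the members and -0.01 over all genes. A call at 20 mM and none at 10 mM is therefore no sign of a difference between doses for ZNF131, ZNF697, ZNF841, ZNF358, ZNF395 or ZNF700.

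KRAB domains were sought with a sequence pattern in the translated GENCODE coding sequences. This grouping carries a limit of its own. In all, 3 forms of the pattern were tried, each after the fold changes had been seen, and the share called grew with each. The first form, in the longest isoform, found 12 members, of which 6 were higher and 1 lower at 20 mM. The same form in any isoform found 13, with 7 higher and 1 lower, and the looser form last used, which was widened after reading the members' coding sequences, found 16, with 9 higher and 1 lower. Over all genes 15.4% were higher and 21.6% lower at this dose, and among genes of 5 FPKM or more 20.5% and 29%. Of the higher members with the pattern, 1, 2 and 4 by the 3 forms had control means under 5 FPKM and so passed the rule only through their values under 2-DG. These were ZNF432, then ZNF655, then ZNF251 and ZNF621, and all 3 genes that the later forms added to the higher count are of this kind. Without them each form gave 5 higher, of 11, 11 and 12 members. The members without the pattern gave 14 higher of 47, 13 of 46 and 11 of 43. The genes called KRAB genes above match the last form. Among the tested ZNF genes under 5 FPKM, 39 of 243, 39 of 249 and 41 of 253 with the pattern were higher at 20 mM. By the last form, 27.6% of the 58 members and 64.2% of the 425 ZNF genes under 5 FPKM that have a coding sequence had the pattern, and the pseudogene counts among the members without it. No difference between members with and without it was tested.

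The partners through which KRAB proteins repress were followed as a fixed list of 23 tested genes. At 20 mM, 12 of them were lower and 1 higher, and at 10 mM 10 were lower and 0 higher (limma; 2 were higher at an unadjusted p under 0.05), and their median log2 fold change was -0.27 at the higher dose. Over all genes, 21.6% were lower and 15.4% higher at 20 mM and 17.5% and 12.1% at 10 mM, and among genes of 5 FPKM or more 29% were lower at 20 mM. TRIM28, the KRAB corepressor, was at 143 ± 12.2 FPKM (SD, n = 3) in control and 110 ± 2.30 at 20 mM, a log2 fold change of -0.38 ± 0.09 (adjusted p = 0.00694). UHRF1, which brings DNMT1 to replicated DNA, went from 24.9 ± 2.91 to 9.67 ± 0.461 FPKM (log2 fold change -1.27 ± 0.10, adjusted p = 1.1e-05). DNMT1, the maintenance DNA methyltransferase, fell from 23.7 ± 1.16 to 14.0 ± 0.172 FPKM (adjusted p = 3.3e-05). CBX5, the heterochromatin protein HP1 alpha, fell from 4.35 ± 0.454 to 1.85 ± 0.0669 FPKM (adjusted p = 0.000114). SETDB1 was at 3.22 ± 0.319 and 3.51 ± 0.251 FPKM and was not called (adjusted p = 0.539), and MORC2, which works with the HUSH silencing complex, rose from 6.19 ± 0.340 to 7.34 ± 0.0779 FPKM (adjusted p = 0.0298). UHRF1 and DNMT1 are also replication genes.

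For other name families of zinc finger genes, counts at 20 mM stand beside 15.4% higher and 21.6% lower over all genes. The 399 tested ZNF genes under 5 FPKM gave 62 higher (15.5%, near the share of all genes) and 22 lower (5.5%), and their median log2 fold change was 0.04. The share called varies with level, as all genes of 5 FPKM or more gave 20.5% higher and 29% lower. All genes under 5 FPKM were not counted apart, so these ZNF genes have no background of matched level here. The 43 ZBTB genes gave 10 higher and 4 lower, the 19 ZFP genes 7 higher and 0 lower, and the 16 KLF genes 8 higher and 0 lower. The 17 ZSCAN genes gave 3 higher and 1 lower, and the 9 ZKSCAN genes 1 higher and 0 lower. Their medians were 0.12 for ZBTB, 0.21 for ZFP, 0.21 for KLF, -0.01 for ZSCAN and 0.14 for ZKSCAN genes. At an unadjusted p under 0.05, 1 ZFP gene, 0 KLF genes and 1 ZKSCAN gene were lower. None of these families was compared with the 59 members by a test.

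**Figure D4:**
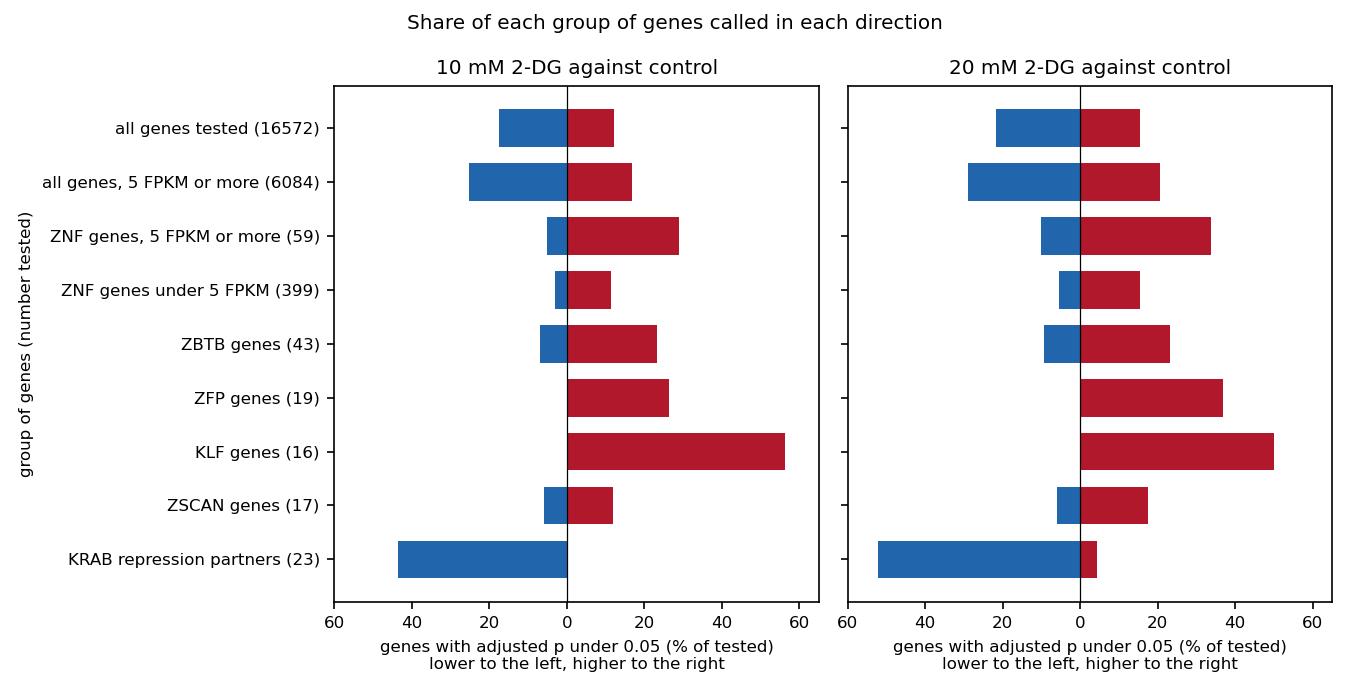
Percent of tested genes with adjusted p under 0.05 that were lower (blue, to the left) or higher (red, to the right) than control at 10 mM and 20 mM 2-DG, by group of genes. The well-expressed ZNF genes give 33.9% higher and 10.2% lower at 20 mM, all genes 15.4% and 21.6%, and the KRAB repression partners 4.3% and 52.2%.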

How the data were processed

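MDA-MB-231 cells were analyzed by RNA-seq in 9 libraries (3 per group), made from total RNA with a SMARTER mRNA-Seq kit and sequenced on an Illumina instrument. The authors deposited 1 table of FPKM values per library. Per the labels, the processing notes name GRCh38/hg38, and the aligner, the counter and the annotation are not given in the sources used here. Libraries were grouped by their labels. Whole reads were recovered from the FPKM steps with gene lengths, which equalled the GENCODE 29 exon length for 48.6% of the 32806 genes above 0. Library totals were 30974968 to 40843638 reads.

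The FPKM values were analyzed as log2(FPKM + 1) with limma 3.58.1 in R 4.3.3 (all 9 libraries, a variance trend on level, Benjamini-Hochberg adjustment over 16572 genes). The study's own test needs read counts and was not used. A gene was tested if 3 libraries held 10 or more of its reads, scaled to the median depth, and all libraries together 15 or more. Fold changes on this scale understate the change of low genes. The procedure was tested on simulated data. Alternatives were a pseudocount of 0.1, median-ratio scaling, no filter, 1 FPKM in 3 libraries, limma-voom on recovered reads, a replicate block, each library left out and a 1.5-fold DEG threshold. GC and length correction and the members above 5 FPKM in every group were added after seeing the data.

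The members and gene lists were chosen with earlier results of these data known. Members named with values were up to 10 per direction, ranked by the size of their change at 20 mM among those called without overlap, those on the role lists, 3 on either side of the limit and the 5 highest. Others are named to account for calls. The rule's mean gives each group equal weight. SCAN factors were taken from a fixed list and not from a sequence pattern, as had been planned. The KRAB pattern was rewritten 2 times after values had been seen, and all 3 forms are reported. The printed promoters were chosen after values had been seen. Gene positions are from GENCODE 29 and promoter sequences from RefSeq (GRCh38.p14).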

Additional observations from a re-analysis of the deposited data

How the results depend on the processing

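No called result changed sign under these alternatives. With GC and length correction, 26 members were higher at 10 mM and 32 at 20 mM, in place of 17 and 20, and the medians were 0.1839 and 0.2106. With median-ratio scaling 19 and 24 were higher and 2 and 4 lower, in place of 3 and 6, and the medians were 0.1461 and 0.1702. With no filter on low values 13 and 16 were higher and 2 and 4 lower, where 4.3% and 6.1% of 32806 genes were higher. Restricting to members of 5 FPKM or more in every group gave 11 and 13 higher. The DEG count at 10 mM, 0, became 1 with limma-voom, 1 with a pseudocount of 0.1 and 4 with a 1.5-fold threshold. At 20 mM that threshold gave 5 higher and 1 lower. With 1 library left out, the 20 mM DEG count was 0 to 1, the count of higher members 14 to 19 at 10 mM and 15 to 24 at 20 mM, and the medians 0.0853 to 0.135 at 10 mM, 0.1191 to 0.1579 at 20 mM and 0.0044 to 0.0384 between doses. The causes were not tested. Replicate numbers did not pair the libraries (correlations of deviations between same-numbered libraries -0.493 to 0.371). Between differently numbered libraries the correlations ran from -0.297 to 0.621. The highest were control replicate 1 with 10 mM replicate 2 (0.621) and control replicate 2 with 10 mM replicate 1 (0.582). A block by replicate number does not cover such links, and their source was not tested. With a replicate block, 17 members were higher and 2 lower at 10 mM, and 17 higher and 5 lower at 20 mM. The block ended the call of ZNF217 at 10 mM and those of ZNF655, ZNF697, ZNF841 and ZNF358 at 20 mM. The 3 libraries per group limit which small changes could be called.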
